A study of Mus musculus with 4 samples.

Results

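The 9 genes described here are 5 of the urea cycle (Cps1, Otc, Ass1, Asl and Arg1) and 4 of gluconeogenesis and glucose release (Pck1, G6pc, Fbp1 and Slc2a2), out of 32285 genes listed in each library. They were taken by name, and all 9 were listed. The samples were livers of male mouse offspring, as fetuses at E18.5 or as adults at 8 weeks, whose mothers were controls (Ctrl) or had hyperglycemia in pregnancy (intrauterine hyperglycemia, IHG). Fetal tissue was pooled over 3 pregnant mice and adult tissue over individuals after perfusion through the portal vein. All livers were digested with collagenases, DNase and hyaluronidase, passed through red cell lysis, and read as single cells with 10x Genomics 3′ chemistry. Strain, and how hyperglycemia was produced, are not given in the sources used here. There was 1 library for each of the 4 groups, so no difference below has a replicate check or a test. All intervals are exact 95% intervals that cover counting error only.

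The urea cycle turns ammonia from amino acid breakdown into urea. Cps1 and Otc act in mitochondria, and Ass1, Asl and Arg1 in the cytosol. Gluconeogenesis makes glucose from lactate, glycerol and amino acids: Pck1 forms phosphoenolpyruvate, Fbp1 removes a phosphate from fructose bisphosphate, and G6pc frees glucose from its phosphate in the endoplasmic reticulum. Slc2a2 encodes GLUT2, the low-affinity glucose carrier of hepatocytes. Within the liver both pathways belong mainly to the hepatocyte, and their activity there increases around birth. The fetal liver is also a blood-forming organ, so most of its cells are blood cells.

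After filtering, 7594 Ctrl and 7925 IHG cells remained in the fetal libraries and 4951 and 6500 in the adult ones, and pairs of libraries shared 8 to 26 cell barcodes. The libraries held 77874423, 105382968, 17987173 and 19366065 UMIs (unique molecular identifiers, each standing for 1 captured RNA molecule). Levels are given as CPM, the UMIs of a gene per 1e6 UMIs of its cell class, and with 3′ tags they do not scale with transcript length. Haemoglobin RNA took 35.4% of fetal Ctrl and 20.4% of fetal IHG UMIs. Fetal hepatocyte-like cells formed 1 cluster, led by Ahsg, Alb and Apoa1, with 107 Ctrl and 105 IHG cells, and all 14 hepatocyte markers were detected in both libraries. No adult cell had 2% or more of its UMIs from those markers. The adult libraries, labelled liver, thus held no hepatocyte-like class and give the members in other cells only.

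On GRCm38 (mm10, GENCODE M21) the members are protein-coding genes spread over 8 chromosomes. Cps1 (ENSMUSG00000025991) is at chr1:67123026-67231259, Otc (ENSMUSG00000031173) at chrX:10252305-10321024 and Ass1 (ENSMUSG00000076441) at chr2:31470207-31520672. Asl (ENSMUSG00000025533) is at chr5:130011258-130029247 and Arg1 (ENSMUSG00000019987) at chr10:24915221-24927484, both on the minus strand. Pck1 (ENSMUSG00000027513) is at chr2:173153048-173159273, G6pc (ENSMUSG00000078650) at chr11:101367561-101377903 and Slc2a2 (ENSMUSG00000027690) at chr3:28697903-28731359. Fbp1 (ENSMUSG00000069805) is at chr13:62864753-62888282 on the minus strand.

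Promoter sequence was at hand for 6 of the 9 members, and 4 are shown: Ass1, which was found in many cell classes, beside Otc, which was not, and the glucose genes G6pc and Pck1. Each is the 250 bases before the gene's start in RefSeq on GRCm38.p6, where the starts of Ass1, Pck1 and G6pc lie downstream of the GENCODE ones. The Ass1 stretch is chr2:31470020-31470269 and the Otc stretch chrX:10252055-10252304, both on the plus strand, with every CpG in capitals.
Ass1: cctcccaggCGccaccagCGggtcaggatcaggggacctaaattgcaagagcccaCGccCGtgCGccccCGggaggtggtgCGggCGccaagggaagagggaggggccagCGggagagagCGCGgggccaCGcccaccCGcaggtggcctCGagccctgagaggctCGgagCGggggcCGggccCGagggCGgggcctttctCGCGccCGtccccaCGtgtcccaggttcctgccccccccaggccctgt
Otc: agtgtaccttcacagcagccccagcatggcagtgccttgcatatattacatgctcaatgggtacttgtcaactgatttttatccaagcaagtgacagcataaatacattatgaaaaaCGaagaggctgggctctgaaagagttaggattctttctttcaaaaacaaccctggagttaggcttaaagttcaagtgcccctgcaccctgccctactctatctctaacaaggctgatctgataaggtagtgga
Ass1 had 23 CpGs and 75.6% GC, and Otc had 1 CpG and 43.6% GC. The medians over 32851 promoter stretches were 6 CpGs and 52.4% GC.

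The G6pc stretch is chr11:101367466-101367715 and the Pck1 stretch chr2:173152823-173153072, both on the plus strand, with motif matches in capitals.
G6pc: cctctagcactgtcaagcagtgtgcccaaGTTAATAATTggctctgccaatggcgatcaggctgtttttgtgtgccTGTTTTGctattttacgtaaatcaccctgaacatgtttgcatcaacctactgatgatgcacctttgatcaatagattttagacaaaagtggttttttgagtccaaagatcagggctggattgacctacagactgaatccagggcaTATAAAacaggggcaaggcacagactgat
Pck1: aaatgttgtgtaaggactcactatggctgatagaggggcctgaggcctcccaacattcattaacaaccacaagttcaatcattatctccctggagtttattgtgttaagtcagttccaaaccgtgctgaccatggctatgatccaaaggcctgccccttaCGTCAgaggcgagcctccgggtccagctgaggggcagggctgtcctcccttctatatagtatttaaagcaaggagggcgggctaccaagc
The search covered 8 motifs on both strands. In G6pc the capitals mark, by the position of their first base before the start, an HNF1 match (here GTTAATAATT) at -221, an insulin response match (TGTTTTG) at -174 and a TATA box (TATAAA) at -29. Of all stretches 0.371%, 5.56% and 12.4% held these. In Pck1 they mark the core of the cAMP response element (TGACG, here on the minus strand) at -90, which 17.8% of stretches held. The other motifs were the whole cAMP response element (TGACGTCA, which holds the core on both strands, in 1.55% of stretches), C/EBP (TTGCGCAA, 0.164%), HNF4 (CAAAGTCCA, 0.384%) and FOXA/FOXO (TGTTTAC, 3.17%). None of these 4 sets of letters was in any of the 6 windows.

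In fetal hepatocyte-like cells Fbp1 and Ass1 led in both libraries and Pck1 was lowest. Fbp1 was at 884 CPM in Ctrl (745 UMIs) and 1548 CPM in IHG (1727 UMIs). Ass1, which joins citrulline to aspartate, was at 693 CPM (584 UMIs) and 1193 CPM (1331 UMIs). Arg1, the arginase that releases urea, was at 192 CPM (162 UMIs) and 370 CPM (413 UMIs). The first 3 places were thus the same in both libraries. Cps1, which makes carbamoyl phosphate for the first step, was at 132 CPM (111 UMIs) and 360 CPM (402 UMIs). Otc, which makes citrulline, was at 116 CPM (98 UMIs) and 119 CPM (133 UMIs). Asl, which splits argininosuccinate, was at 59.3 CPM (50 UMIs) and 173 CPM (193 UMIs). Otc and Asl were the one pair of neighbours that changed places between the libraries. Slc2a2 was at 48.7 CPM (41 UMIs) and 87.0 CPM (97 UMIs). G6pc was at 39.2 CPM (33 UMIs) and 74.4 CPM (83 UMIs). Pck1 was at 11.9 CPM (10 UMIs) and 27.8 CPM (31 UMIs). Neighbours with overlapping counting intervals were Cps1 and Otc, and Asl, Slc2a2 and G6pc, in Ctrl. In IHG they were Arg1 and Cps1, Otc and Slc2a2, and Slc2a2 and G6pc.

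**Figure D1:**
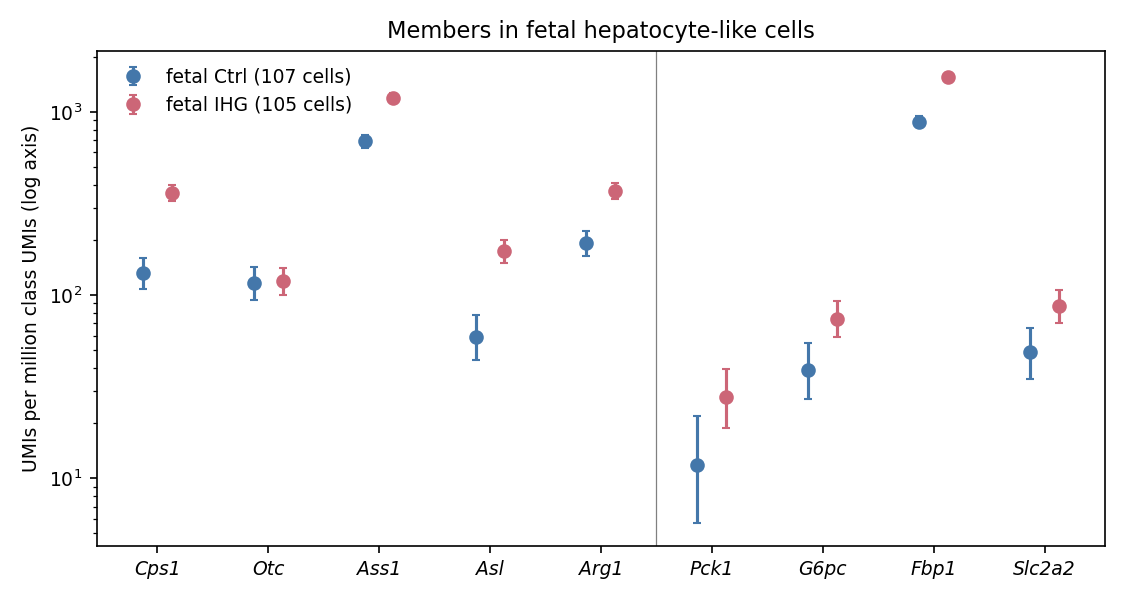
Level of each member in fetal hepatocyte-like cells, in CPM on a log axis, with exact 95% Poisson intervals, for Ctrl (107 cells) and IHG (105 cells). Levels run from 11.9 for Pck1 to 884 for Fbp1 in Ctrl, and Otc (116 and 119) is the member whose points lie closest together.

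Ass1 was seen in 89 of 107 Ctrl cells (83.2%, 74.7 to 89.7) and 95 of 105 IHG cells (90.5%, 83.2 to 95.3), and Fbp1 in 95 and 93 cells. Cps1 was seen in 27 Ctrl cells (25.2%, 17.3 to 34.6) and 49 IHG cells (46.7%, 36.9 to 56.7), and Pck1 in 5 and 11. Depth differed, with a median of 3628 UMIs per Ctrl cell and 6468 per IHG cell. Thinned to 1000 UMIs a cell, which kept 96 and 93 cells, Ass1 was seen in 49.0% and 68.8%, and Cps1 in 12.5% and 16.1%. G6pc went the other way after thinning, with 5.21% and 3.23%. All 5 urea cycle genes were seen together in 10 Ctrl and 30 IHG cells, each with at least 5000 UMIs.

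The members split into different patterns among the hepatocyte-like cells, along the share of a cell's UMIs that came from the mitochondrial genome. The split, at 1%, was chosen after the values were seen. Among cells with at most 10% haemoglobin, 42 of 88 in Ctrl and 42 of 98 in IHG lay under it. They are called mitochondria-poor here, a name for this RNA share and not for the number of mitochondria. In those cells Ass1 and Fbp1 were higher. Ass1 was at 1635 CPM against 719 in the other Ctrl cells, a log2 difference of 1.18 (0.93 to 1.43), and at 2276 against 814 CPM in IHG, 1.48 (1.32 to 1.64). Fbp1 differed by 1.01 (0.78 to 1.23) in Ctrl and 1.46 (1.32 to 1.60) in IHG. Cps1 was lower there in both libraries, at 31.7 against 237 CPM in Ctrl, -2.90 (-4.56 to -1.63), and 62.3 against 484 CPM in IHG, -2.96 (-3.71 to -2.29). Otc, whose protein also works in mitochondria, differed by 0.49 (-0.17 to 1.12) in Ctrl and 0.98 (0.46 to 1.5) in IHG, the opposite direction to Cps1.

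The genes of glucose release lay on the side of Cps1. Slc2a2 differed by -3.21 (-5.11 to -1.80) in IHG, and in Ctrl by -1.04 with an interval that included 0 (-2.6 to 0.25). G6pc differed by -1.87 (-3.14 to -0.82) in IHG and -0.83 (-2.40 to 0.48) in Ctrl. Of the Pck1 UMIs in cells with at most 10% haemoglobin, 30 of 31 in IHG and 10 of 10 in Ctrl were in cells with a mitochondrial share of at least 1%. Arg1 differed by 0.49 (-0.03 to 0.99) and 0.23 (-0.09 to 0.54), within counting error in both libraries. Asl differed by -0.47 (-1.59 to 0.53) in Ctrl and 0.63 (0.18 to 1.06) in IHG.

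Other features moved with the same split. Alb, albumin, was lower in the mitochondria-poor cells, at 12414 against 44809 CPM in Ctrl and 14449 against 42870 CPM in IHG. Malat1, a long non-coding RNA kept in the nucleus, was at 120 against 2028 CPM and at 459 against 3010 CPM. Ribosomal protein genes took 26.5% against 18.1% of UMIs in Ctrl and 22.4% against 16.03% in IHG. The mitochondria-poor cells were shallower, with medians of 2405 against 4659.5 UMIs in Ctrl and 4586.5 against 8771.5 in IHG. The part of these features in the members' pattern was not tested. Among cells with at least 5000 UMIs, of which 10 and 21 were mitochondria-poor, Ass1 differed by 1.41 in Ctrl and 1.58 in IHG, and Cps1 by -2.24 and -2.91.

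**Figure D2:**
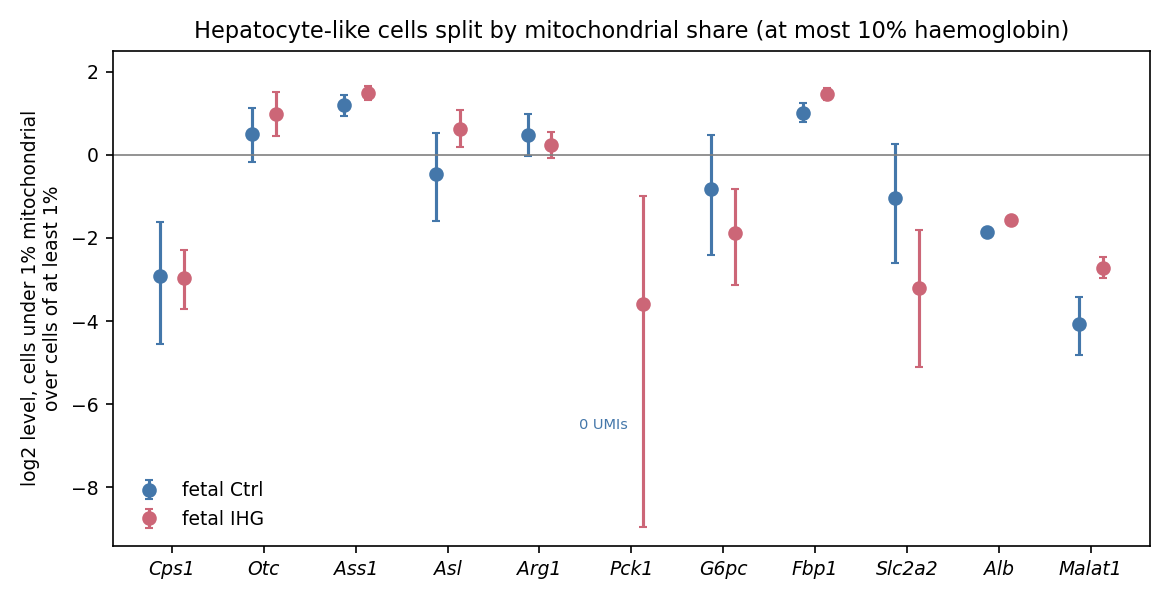
Log2 level of each member, of Alb and of Malat1 in mitochondria-poor (under 1%) fetal hepatocyte-like cells over the other cells of the same library, among cells with at most 10% haemoglobin, with exact 95% counting intervals. Ass1 (1.18 in Ctrl and 1.48 in IHG) and Fbp1 (1.01 and 1.46) lie above 0, and Cps1 (-2.90 and -2.96), Alb and Malat1 below it.

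**Figure D3:**
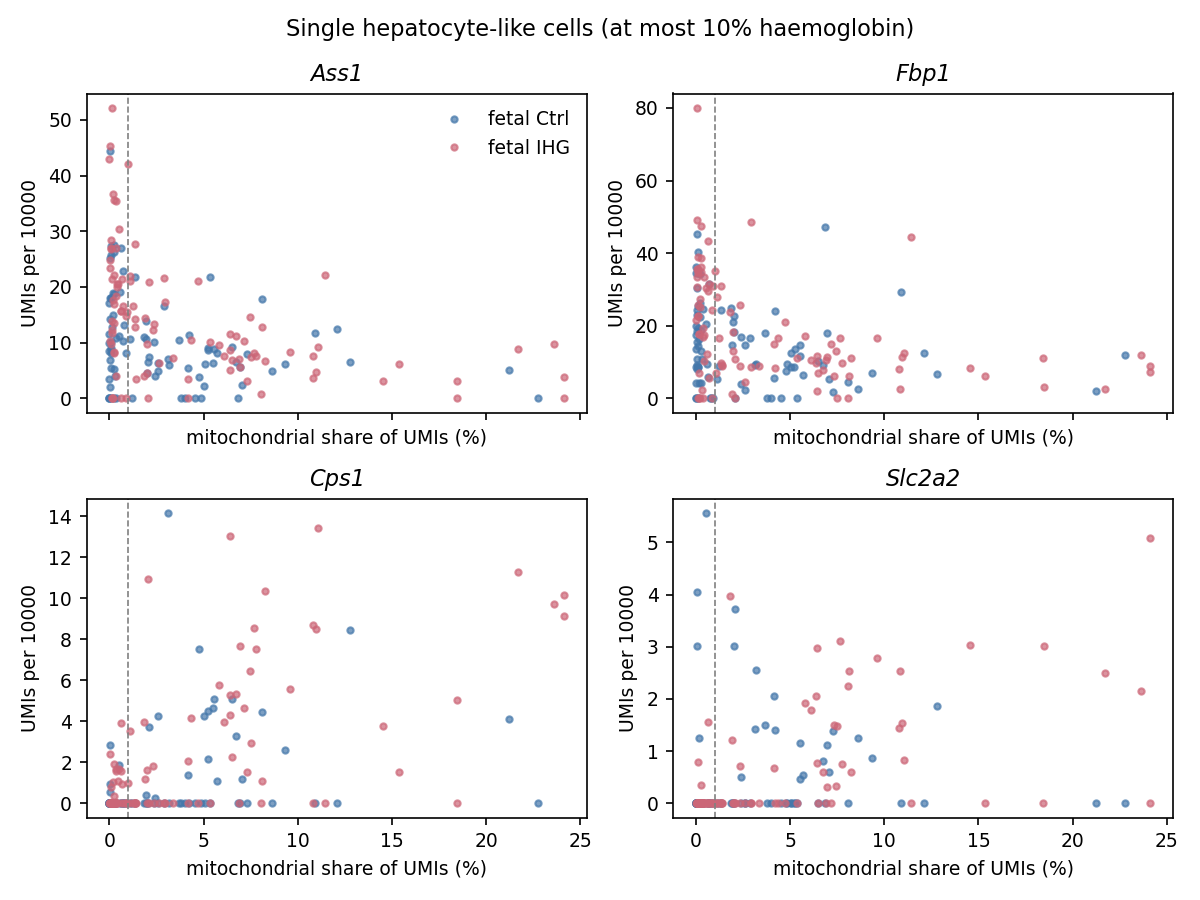
Level of Ass1, Fbp1, Cps1 and Slc2a2 in single fetal hepatocyte-like cells (UMIs per 10000 UMIs of the cell) against the mitochondrial share of the cell's UMIs in percent, for 88 Ctrl and 98 IHG cells with at most 10% haemoglobin; the dashed line is 1%. The highest Ass1 values stand left of the line, and the highest Cps1 values right of it.

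Over cells with at least 5000 UMIs and at most 10% haemoglobin (31 Ctrl, 57 IHG), the levels of Ass1 and Fbp1 had a rank correlation of 0.68 in Ctrl and 0.72 in IHG. Cps1 and G6pc had 0.44 and 0.58, and Cps1 and Ass1 -0.03 and -0.41. With the mitochondrial share, Cps1 had 0.36 and 0.69 and Ass1 -0.45 and -0.73. These values describe cells that share a library and differ in depth.

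The comparison of IHG with Ctrl asks whether hyperglycemia of the mother went with other levels of these genes in the fetal liver. Over all hepatocyte-like cells the log2 ratio of IHG over Ctrl was above 0 for 9 of 9 members, as it was for 62.2% of the 5507 genes with at least 20 UMIs. The median was 0.95 for the urea cycle and 0.88 for the glucose genes, beside 0.18 over those genes. Asl was at 1.54 (1.09 to 2.02), Cps1 at 1.45 (1.15 to 1.77) and Pck1 at 1.23 (0.16 to 2.42). These 3 were at least 2-fold higher, as were 10.4% of all genes, and no member was 2-fold lower, as were 6.7%. Arg1 was at 0.95 (0.68 to 1.22), G6pc at 0.93 (0.33 to 1.55), Slc2a2 at 0.84 (0.30 to 1.40), Fbp1 at 0.81 (0.68 to 0.93) and Ass1 at 0.78 (0.64 to 0.93). Otc, at 0.04 (-0.35 to 0.43), was the member whose interval included 0. These ratios depended on which cells entered: with a limit of 10% on the mitochondrial share of a cell, clustering gave 134 Ctrl and 255 IHG hepatocyte-like cells, medians of 0.14 and -0.13, and 5 members above 0.

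Haemoglobin RNA within the hepatocyte-like cells moved with the comparison. In Ctrl 19 of 107 cells had over 10% of their UMIs from haemoglobin, together 35.7% of all hepatocyte-like UMIs. In IHG 7 of 105 cells did, together 4.62%. In those 19 cells hepatocyte markers took 3.28% of UMIs, against 14.7% in the other Ctrl cells, and Ass1 was at 166 CPM. Without such cells Alb was at 35366 CPM in Ctrl and 34722 CPM in IHG. The medians were then 0.49 for the urea cycle and 0.41 for the glucose genes, beside 0.11 over 4841 genes, and 8 of 9 members were above 0, as were 58.4% of genes. A list of 12 plasma protein genes of hepatocytes, 11 of them measured, had medians of 0.85 over all hepatocyte-like cells and 0.41 here. A shift particular to the members was thus not shown. Cps1 was at 1.03 (0.71 to 1.37), the one member at least 2-fold higher, as were 8.86% of genes, and Asl was at 1.00 (0.53 to 1.48). Arg1 was at 0.49 (0.21 to 0.77), Fbp1 at 0.38 (0.25 to 0.51) and Ass1 at 0.32 (0.18 to 0.47), and the intervals of Pck1, G6pc and Slc2a2 included 0. Otc was lower in IHG, at 172 CPM in Ctrl and 123 CPM in IHG, -0.48 (-0.87 to -0.08). No member was 2-fold lower, as were 3.14% of genes.

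Leaving out mitochondria-poor cells as well kept 46 Ctrl and 56 IHG cells. Cps1 was at 237 and 484 CPM, a log2 ratio of 1.03 (0.69 to 1.38). Asl was at 0.66 (0.12 to 1.24), Slc2a2 at 0.63 (0.02 to 1.28) and Arg1 at 0.58 (0.23 to 0.94). Ass1, at 0.18 (-0.03 to 0.39), and Fbp1, at 0.16 (-0.02 to 0.34), had intervals that included 0. Otc was at 154 and 96.2 CPM, -0.68 (-1.19 to -0.16). Here 8 of 9 members and 52.7% of 4157 genes were above 0. The medians were 0.58 for the urea cycle and 0.55 for the glucose genes. Beside them stood 0.35 for the plasma protein list and 0.02 over all genes. Cps1 and Otc, which act in turn in the same compartment, lay on opposite sides of 0.

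**Figure D4:**
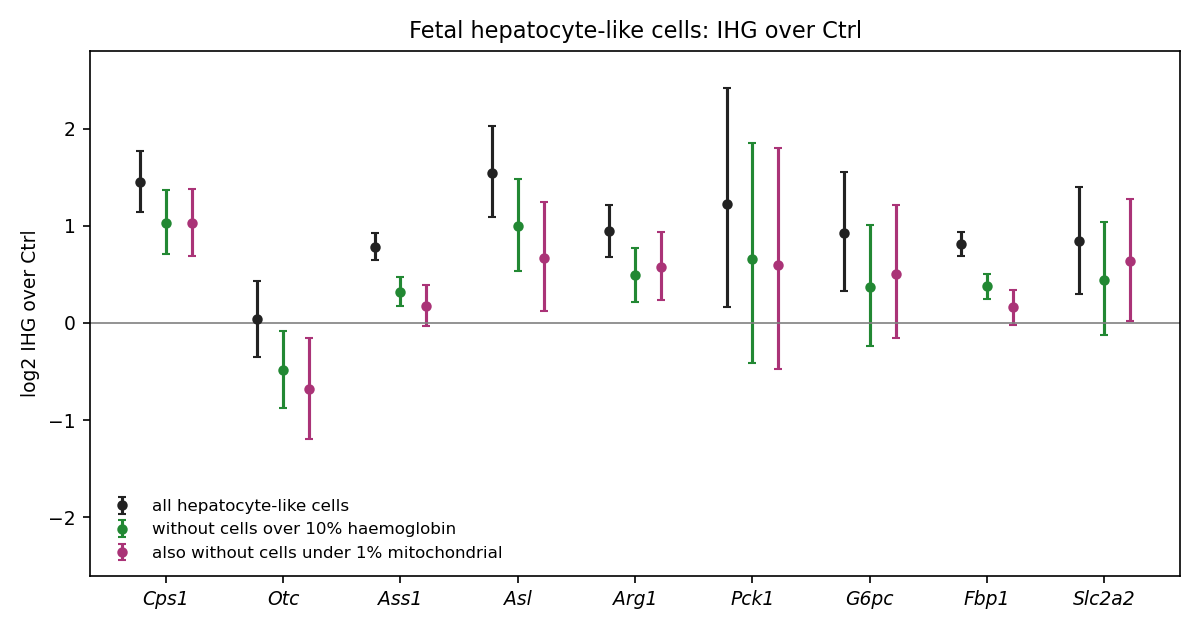
Log2 ratio of IHG over Ctrl for each member in fetal hepatocyte-like cells, with exact 95% counting intervals, over all cells, without cells over 10% haemoglobin, and also without cells under a 1% mitochondrial share. Cps1 (1.45, 1.03 and 1.03) lies above 0 in all 3, and Otc goes from 0.04 to -0.48 and -0.68.

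Genes around the pathways were taken from lists, and each pair of values below is first over all hepatocyte-like cells and then without haemoglobin-rich ones. The list counts and medians stand beside 62.2% of all measured genes above 0 and a median of 0.18 in the first set. In the second set these were 58.4% and 0.11, and with mitochondria-poor cells also left out 52.7% and 0.02. Of the urea cycle partners, 11 of 13 had at least 20 UMIs; 11 and then 9 of them were higher in IHG, with medians of 0.88 and 0.51. Got1, the cytosolic aminotransferase that makes aspartate, was at 1.63 (1.07 to 2.22) and 1.32 (0.71 to 1.97). Slc25a13, the mitochondrial aspartate carrier citrin, was at 0.90 (0.53 to 1.29) and 0.51 (0.11 to 0.92). Glud1, glutamate dehydrogenase, was at 0.42 (0.23 to 0.62) and -0.05 (-0.25 to 0.15). Of 12 measured genes of amino acid breakdown, 12 and then 9 were higher, with medians of 0.64 and 0.18. With mitochondria-poor cells also left out, 5 of the 12 were higher and 7 lower, with a median of -0.02. Hpd, of tyrosine breakdown, was at 1.08 (0.88 to 1.27) and 0.62 (0.42 to 0.82). Gnmt, which uses methyl groups from methionine, was at 1.12 (0.90 to 1.34) and 0.63 (0.41 to 0.86), and Bhmt at 0.59 (0.40 to 0.79) and 0.12 (-0.08 to 0.33).

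Of the gluconeogenesis partners 11 of 13 measured and then 8 of 12 were higher, with medians of 0.61 and 0.41. Ldha, lactate dehydrogenase A, was at 955 CPM in Ctrl and 2281 CPM in IHG, 1.26 (1.14 to 1.37) and then 0.83 (0.71 to 0.95). Pcx, pyruvate carboxylase, was at 0.50 (0.11 to 0.90) and 0.07 (-0.34 to 0.49). Genes of glycolysis and of glycogen synthesis and breakdown were higher in 6 of 10, near the 62.2% of all genes, and then in 6 of 8, beside 58.4%. Gys2, liver glycogen synthase, was at 1.62 (0.79 to 2.54) and 1.15 (0.29 to 2.10), and Pygl, liver glycogen phosphorylase, at 0.50 (0.15 to 0.86) and 0.05 (-0.32 to 0.43).

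The same shares of all genes above 0, 62.2% and then 58.4%, stand beside the lists that follow. Transcriptional regulators had low counts, with 11 of 13 measured and then 8 of 12 higher, and medians of 0.41 and 0.08. Cebpd was at 1.39 (0.64 to 2.21) and 1.33 (0.45 to 2.31). Cebpa, Cebpb and Hnf4a had intervals that included 0 in both. Of hormone receptors and insulin readouts 6 of 7 and then 7 of 7 were higher, with medians of 1.10 and 0.87. At least 2-fold higher were 6 and then 3 of the 7, as were 10.4% and 8.86% of all genes. Igfbp1, which insulin represses in liver, was at 602 CPM in Ctrl and 1999 CPM in IHG, 1.73 (1.59 to 1.87) and then 1.28 (1.13 to 1.43). Irs2, which carries the insulin signal inside the cell, was at 2.44 (1.20 to 3.96) and 2.31 (0.84 to 4.26), with 6 and 43 UMIs in the first. Of periportal genes outside the members 6 of 8 and then 5 of 8 were higher, with medians of 0.53 and 0.03, the second count being near the share over all genes. Gls2, the liver glutaminase, was at 1.75 (0.79 to 2.84) and 1.38 (0.33 to 2.60). Of pericentral genes 4 of 6 and then 2 of 6 were higher, and Rgn was at -0.49 (-0.65 to -0.34) and -0.94 (-1.09 to -0.78). With mitochondria-poor cells also left out, 52.7% of all genes were above 0. Periportal genes were then higher in 2 of 7 (median -0.25) and pericentral ones in 2 of 6 (-0.19). Glycolysis and glycogen genes were higher in 3 of 8 (-0.09), and regulators in 5 of 9 (0.19). Urea cycle partners were higher in 7 of 10 (0.35) and gluconeogenesis partners in 7 of 11 (0.17). Of hormone receptors and insulin readouts 5 of 5 were higher (0.88).

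Outside hepatocyte-like cells some members were hardly seen. Hepatocyte-like cells were 1.41% of fetal Ctrl and 1.32% of fetal IHG cells and held 94.1% and 83.9% of the Cps1 UMIs, and 92.5% and 84.2% of Otc. They held 90.5% and 87.4% of Fbp1 and 91.1% and 86.6% of Slc2a2. Ass1 was shared, with 55.9% and 46.6% there, and of Asl 10.9% and 16.4% was there. Free RNA from broken cells enters every droplet. The Alb count of a class, with the ratio of a member to Alb in hepatocyte-like cells, gives an estimate of the UMIs this RNA would bring. That ratio differed among hepatocyte-like cells, with Ass1 higher and Alb lower in the mitochondria-poor ones, so the estimate is rough. In erythroid-like cells Asl had 89 UMIs in Ctrl against an estimated 1.10 and 123 in IHG against 6.48. The Poisson interval of Asl lay above the estimate in both libraries. The intervals of the other 8 members did not lie above theirs in either library, though some counts did, such as Cps1 in IHG with 21 against 13.5 and Fbp1 in Ctrl with 19 against 16.4. In B-like cells Cps1 had 11 UMIs in IHG against 4.35, with its interval above that number, and 2 in Ctrl against 1.63. A list of 12 plasma protein genes was at 55.2 CPM in Ctrl and 149 CPM in IHG erythroid-like cells.

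Ass1 went above its free RNA number in fetal monocyte-like cells, with 99 UMIs in Ctrl and 342 in IHG against 0.623 and 5.51, or 53.2 and 84.6 CPM. In myeloid progenitor-like cells, led by Elane, Prtn3 and Mpo, it had 21 and 303 UMIs against 0.298 and 6.65, or 17.9 and 43.4 CPM. In B-like cells it was at 15.8 and 28.8 CPM, and in neutrophil-like cells at 1.08 and 1.74 CPM, with 9 and 32 UMIs against free RNA numbers of 3.87 and 33.6. The log2 ratio of IHG over Ctrl was 0.67 (0.34 to 1.01) in monocyte-like, 1.28 (0.64 to 1.99) in myeloid progenitor-like and 0.87 (0.59 to 1.15) in B-like cells. The plasma protein list also stood higher in IHG in these classes, at 145 and 278 CPM in monocyte-like, 68.2 and 130 CPM in myeloid progenitor-like and 118 and 250 CPM in B-like cells. Haemoglobin genes stood lower in IHG, at 74889 and 13348 CPM in monocyte-like, 14888 and 11741 CPM in myeloid progenitor-like and 80607 and 17432 CPM in B-like cells. The part of either was not tested.

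In the adult libraries Ass1 had more UMIs than any other member, 559 in Ctrl and 503 in IHG. T-like cells held 300 and 288 of them, or 55.7 (49.5 to 62.3) and 53.5 (47.5 to 60.1) CPM, a log2 ratio of -0.06 (-0.29 to 0.18). Within T-like cells it was at 111 and 126 CPM in the cluster led by Il17a, Tnfrsf4 and Areg, and at 127 and 126 CPM in the cluster of dividing cells led by Pclaf and Birc5. An unnamed cluster led by Cd209a, Cxcl9 and Ccl17 had 100 and 147 CPM, 0.55 (0.15 to 0.94). Adult monocyte-like cells had 28 UMIs in Ctrl and 16 in IHG, or 55.7 and 22.4 CPM. B-like cells, at 8.97 and 6.42 CPM, and NK/ILC-like cells, at 2.40 and 1.46 CPM, were lower, and neutrophil-like cells had 0 UMIs in both libraries.

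**Figure D5:**
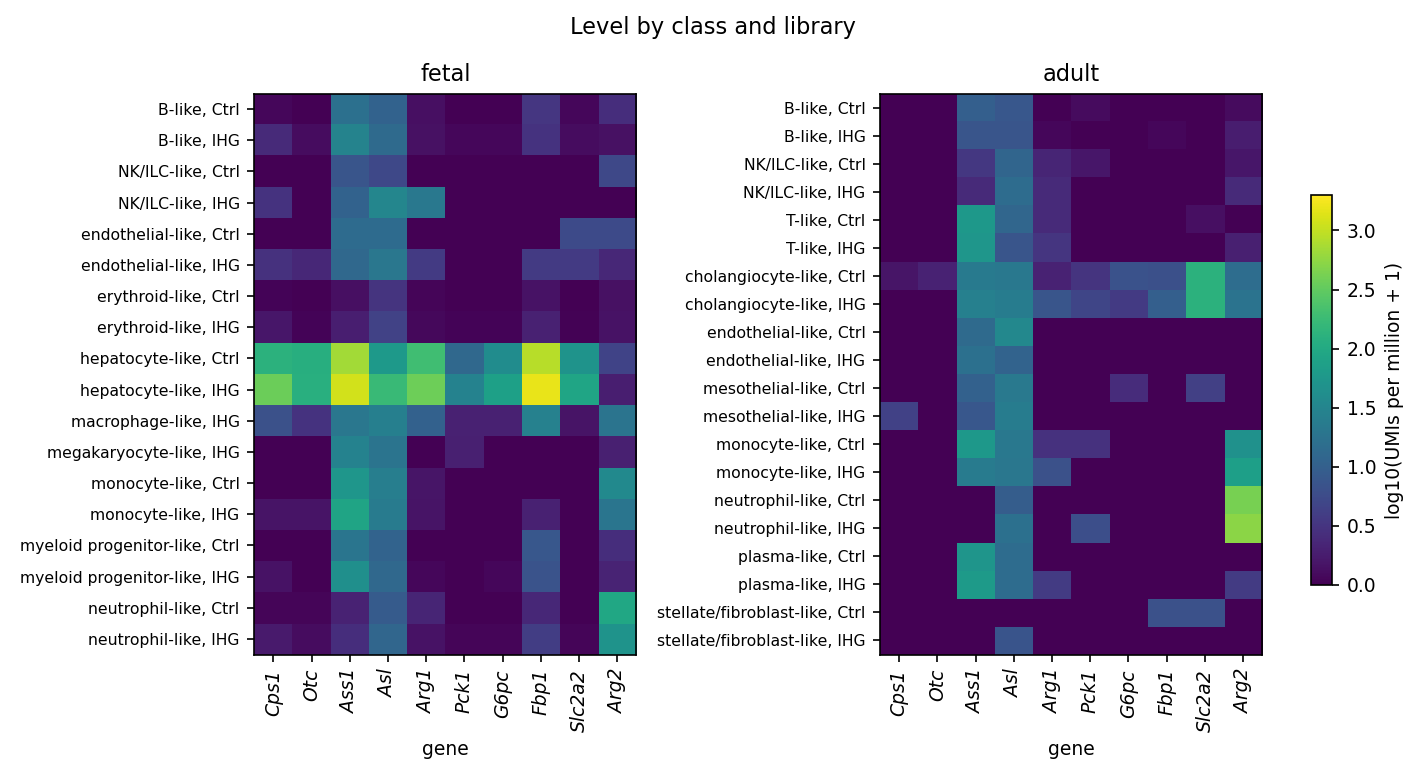
Level of each member and of Arg2 by cell class and library (classes with at least 20 cells) in the fetal and adult libraries, as log10 of CPM plus 1. Hepatocyte-like cells show all 9 members; Ass1 and Asl are also seen in blood cells, Slc2a2 in adult cholangiocyte-like cells (130 CPM in both libraries), and Arg2 in neutrophil-like cells.

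Slc2a2 stood out in adult cholangiocyte-like cells, the lining cells of bile ducts, which here carried Spp1, Epcam, Krt19 and Sox9. It had 244 UMIs in 193 Ctrl cells and 100 in 107 IHG cells, which is 130 CPM in each (114 to 147 and 106 to 158). It was seen in 56.0% of Ctrl and 42.1% of IHG cells, and after thinning in 14.1% and 13.6%. No other named adult class had more than 2 Slc2a2 UMIs in a library. The same cells had 1 and 0 UMIs of Cps1, 4 and 3 of Pck1, 11 and 2 of G6pc and 10 and 7 of Fbp1. They also carried Alb (1824 and 1870 CPM) and Ttr (1550 and 1736 CPM), with Apoa1 at 7.97 and 3.90 CPM.

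Asl was low and broad. Outside hepatocyte-like cells it reached 24.7 CPM in fetal Ctrl (monocyte-like, 46 UMIs), 32.2 CPM in fetal IHG (NK/ILC-like, 16 UMIs), 34.1 CPM in adult Ctrl (endothelial-like, 8 UMIs) and 23.7 CPM in adult IHG (mesothelial-like, 7 UMIs). Fbp1 had 8 UMIs against a free RNA number of 0.38 in Ctrl and 42 against 8.63 in IHG in fetal myeloid progenitor-like cells. In the 351 fetal IHG macrophage-like cells it had 53 against 38.4, and fetal Ctrl had 6 such cells, too few to compare.

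Arg1 is known from alternatively activated macrophages and was followed in myeloid cells, where it was rare. Fetal neutrophil-like cells had 10 UMIs in 1001 Ctrl cells and 8 in 2123 IHG cells, or 1.21 CPM (0.58 to 2.22) and 0.44 CPM (0.19 to 0.86), with a log2 ratio of -1.47 (-3.01 to 0.02). Over 16 alternatives the ratio ran from -1.76 to 1.22, and it turned above 0 with cells thinned to 1000 UMIs. The free RNA estimates were 1.07 and 10.4 UMIs. Fetal monocyte-like cells had 1 and 2 UMIs, and the fetal IHG macrophage-like cells had 19 in 17 cells against 9.19. Alb was seen in 15 of those 17 cells and in 48.5% of the other macrophage-like cells, so hepatocyte RNA moved with Arg1 there, and its part was not tested. Adult neutrophil-like cells had 0 UMIs in 188 Ctrl and 107 IHG cells, which allows up to 8.43 and 15.7 CPM. Adult monocyte-like cells had 1 UMI in Ctrl and 4 in IHG, all 4 in 1 cell.

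Arg1 was also seen in a fetal IHG cluster outside the named classes, with 12 UMIs in 5 of its 237 cells. Alb was seen in 3 of those 5 cells and in 43.1% of the cluster's other cells. A few lymphoid cells carried Arg1 too. In fetal IHG NK/ILC-like cells it had 10 UMIs in 6 of 44 cells against a free RNA number of 0.215, and 0 UMIs in 67 Ctrl cells. Haemoglobin genes were at 243312 CPM in that Ctrl class and 6575 CPM in the IHG one, and their part was not tested. In the adult T-like cluster led by Il17a it had 7 UMIs in 4 of 268 Ctrl cells and 10 UMIs in 7 of 287 IHG cells. Cd3e, a T cell marker, was seen in 0 of those 4 Ctrl and 2 of those 7 IHG cells. It was seen in 56.1% and 52.9% of the cluster's other cells. Whether the cells with Arg1 were T cells was not tested. Alb was seen in none of those 11 cells and in 0.379% and 0.357% of the cluster's other cells.

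Myeloid cells carried Arg2, the mitochondrial arginase made by another gene. Fetal neutrophil-like cells had 752 Arg2 UMIs in Ctrl and 879 in IHG, or 90.6 and 47.9 CPM, a log2 ratio of -0.92 (-1.06 to -0.78). It was at 251 and 181 CPM in the cluster led by Retnlg and Cxcl2, at 76.4 and 29.1 CPM in the one led by Ltf and Csta2, and at 10.0 and 1.93 CPM in the one led by Chil3 and Camp, lower in IHG in each. Haemoglobin genes took 33187 CPM of the class in Ctrl and 10146 CPM in IHG. Adult neutrophil-like cells had 424 (359 to 497) and 528 (430 to 641) CPM, a ratio of 0.31 (-0.06 to 0.69). Odc1, which starts polyamine synthesis from ornithine, was at -0.60 (-0.82 to -0.39) in fetal and -0.65 (-1.20 to -0.13) in adult neutrophil-like cells. Sat1, of polyamine breakdown and the gene of that list with the most UMIs, was at 0.05 (-0.01 to 0.12) and 0.38 (0.15 to 0.61). Srm, which makes spermidine and was picked after its value was seen, was at 1.27 (0.37 to 2.29) in fetal neutrophil-like cells on 12 and 64 UMIs. Chil3, of the alternative activation list, was at 1983 and 3566 CPM in fetal neutrophil-like cells, 0.85 (0.82 to 0.87). In adult ones Chil3 went the other way, at 351 and 26.1 CPM on 125 and 5 UMIs, -3.75 (-5.40 to -2.49).

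By likeness of profile over 38 sums of a class in a library, the genes closest to the mean of the members were Apom, Dpys, Hgfac, Ppara and Akr1d1, with Pearson correlations of 0.98. All 38 sums come from 4 libraries, and 2 of them are hepatocyte-like. For Arg1, over the 36 sums without hepatocyte-like cells, the closest were Cisd3, Mvd, Tmem37, Gm29488 and C8g, at 0.61 to 0.69, on few Arg1 UMIs. Over the same 36 sums G6pc and Slc2a2 correlated at 0.90, the highest of the 36 pairs of members. Slc2a2 was high in 2 of these sums, the adult cholangiocyte-like ones, where G6pc had 11 and 2 UMIs.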

How the data were processed

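The deposited files hold UMI counts per gene and cell barcode for 4 libraries, made by the authors with Cell Ranger 5.0.0, per the file headers, on mm10, per the submitters' processing notes. The counts were read as deposited. Barcodes with under 300 genes or over 25% of UMIs from the mitochondrial genome were dropped, and doublets were removed with Scrublet (107 and 267 fetal cells by its own threshold; 244 and 286 adult cells at the 95th percentile of the score, since its threshold marked under 0.5%). Each age was clustered with scanpy 1.11.5 (2000 variable genes without members and list genes, 30 components, Leiden resolution 1). Clusters were named from marker lists, and the margins of that naming were set after the clusters were seen. Counts were summed by class and library, with exact Poisson, binomial and conditional intervals (scipy 1.17.1); with 1 library per group no test was run. Genes with at least 20 UMIs were measured. The text names all members and up to 5 genes a list with the most UMIs. Of these, 1 gene of the lists is not reported here. The members and lists were chosen with earlier results of these data known. Code was checked on simulated data.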

Additional observations from a re-analysis of the deposited data

Results flagged for a closer look

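The ratio of IHG over Ctrl for Ass1 in monocyte-like cells had opposite signs at the 2 ages. It was 0.67 (0.34 to 1.01) on the log2 scale in the fetal libraries, on 99 and 342 UMIs, and -1.31 (-2.30 to -0.38) in the adult ones, on 28 and 16 UMIs. With 1 library per group the difference between the ages was not tested. In the adult libraries the UMIs came from 11 of 128 Ctrl and 13 of 180 IHG cells.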

How the results depend on the processing

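Over 23 alternatives the log2 ratio of IHG over Ctrl in fetal hepatocyte-like cells was above 0 in every one for Cps1 (0.48 to 2.07), Asl (0.66 to 2.02), Ass1, Arg1 and Fbp1, and in 10 for Otc. The urea cycle median of 0.95 became 0.14 with a mitochondrial limit of 10%, 1.48 with each library clustered by itself (175 Ctrl and 108 IHG cells), 0.30 with list genes kept among the variable genes (161 and 280 cells), 0.33 when scaled by hepatocyte markers, 0.52 with cells thinned to 1000 UMIs, 0.62 with cells weighted equally, 0.49 without cells over 10% haemoglobin and 0.26 without cells over 1%. With choices added after seeing the data it was 0.58 (mitochondrial share at least 1% and at most 10% haemoglobin) and 0.56 (at least 5000 UMIs and at most 10% haemoglobin). The glucose median of 0.88 became -0.13 with the 10% mitochondrial limit, 0.27 when scaled by hepatocyte markers and 0.27 without cells over 1% haemoglobin. The 10% limit left 5 members above 0 and gave -0.092 for Pck1, -0.26 for G6pc and -0.17 for Slc2a2. G6pc was also at -0.54 after thinning and -0.031 with cells weighted equally. Arg1 in fetal neutrophil-like cells was at 1.22 after thinning. In each case the cause was not tested. Median-of-ratios scaling moved the log2 ratios by -0.11. No ratio exists for Arg1 in adult neutrophil-like cells, at 0 UMIs in both libraries. No paired analysis was possible because each group has 1 library. Low UMI counts limit Pck1, G6pc and Slc2a2.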
